A study of Mus musculus with 12 samples.

Results

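The genes described are 37 markers of radial glia and of the astrocyte and oligodendrocyte lineages. They were chosen by name, and a probe was kept if its detection p-value was under 0.01 on at least 3 of the 12 arrays. Of the 37 genes, 31 passed through 52 of their 57 named probes, out of 18185 probes that passed in the whole series and 10043 genes they name. Clu, Glul, Mlc1, S100b and Msi1 had no named probe and were not analysed here. The 1 probe of Prom1 passed on too few arrays. For the 15 genes with more than 1 passing probe, the probe with the highest mean over all arrays was read, and calls among the pluripotent groups on which a gene's probes differed are given with the gene.

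Radial glia are the elongated progenitors of the developing nervous system, and they give rise to neurons and later to astrocytes and oligodendrocytes. They carry glutamate transporters, gap junctions, lipid-binding proteins and a matrix of chondroitin sulfate proteoglycans, many of which astrocytes keep. Neural stem cells grown in culture share much of this programme, and reprogramming to pluripotency has to silence it.

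Gene expression was read on Illumina bead arrays in 4 groups of 3 samples, all of the strain E14Tg2A (129), which names a line of mouse ES cells. The induced pluripotent stem (iPS) cells were derived with either mouse Nanog (mNanog iPS) or human Nanog (hNanog iPS), and they were compared with embryonic stem (ES) cells and with Nanog-null neural stem (NS) cells. The iPS and ES cells grew in N2B27 medium with LIF and a pair of kinase inhibitors, 3 µM CHIR99021 against GSK3 and 1 µM PD0325901 against MEK. No source used here gives the culture of the NS cells. Nothing in the labels says that replicates came from separate cultures or clones, so p-values measure the spread between these samples, and iPS clone and form of Nanog cannot be told apart. The question for these genes is whether glial expression was silenced in the iPS cells to the level of ES cells. In bulk samples such as these, fewer cells of a type and less RNA per cell cannot be told apart.

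Mean signal per array was 317.5 to 561.9, with 13654 to 16776 probes detected, and correlations across probes within a group were 0.988 to 0.996. Each group held both kinds of the 6 brighter and 6 dimmer arrays, but not in equal parts. Most arrays of hNanog iPS and NS cells were brighter, and most of mNanog iPS and ES cells dimmer. Comparisons of hNanog iPS with mNanog iPS or ES cells are therefore not balanced for brightness. Between groups, deviations from the group means had a median correlation of 0.3 for arrays of the same kind and -0.254 for different kinds. The labels were checked against defining markers. Pou5f1, the core pluripotency factor, had a mean log2 intensity of 13.23 in mNanog iPS, 13.31 in hNanog iPS and 12.96 in ES cells and was not above background in NS cells. Olig2, a transcription factor of neural progenitors, was detected in NS cells alone, at 9.73, 9.73 and 9.82. Nes, the intermediate filament of neural stem cells, read 10.45, 10.71 and 10.67 there, and Sox2, which both cell states use, was detected on all arrays. None of the 6 microglial markers had a probe that passed.

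Detection set the outline of the glial genes. On the 3 arrays of NS cells, 29 of the 31 genes were detected in full, against 12 in mNanog iPS, 10 in hNanog iPS and 13 in ES cells. A core of 10 genes was detected on all 12 arrays: Aldh1l1, Apoe, Cd9, Cnp, Dbi, Gja1, Metrn, Ncam1, Ttyh1 and Zbtb20. Another 13 genes were detected on the 3 NS arrays and on no other array. With Slc1a3, Cspg4, Cspg5 and Rcan2, each detected on too few other arrays, 17 genes met the detection minimum only through NS cells, so that being lower than NS cells follows from how they were kept. The leading probes of Mbp and Mobp met it only through ES cells, which limits their differences from ES cells in the same way. Ptn was detected in full in mNanog iPS and NS cells, Dner in all groups but hNanog iPS, and the leading probes of Mbp and Mobp in full in ES cells alone.

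**Figure D1:**
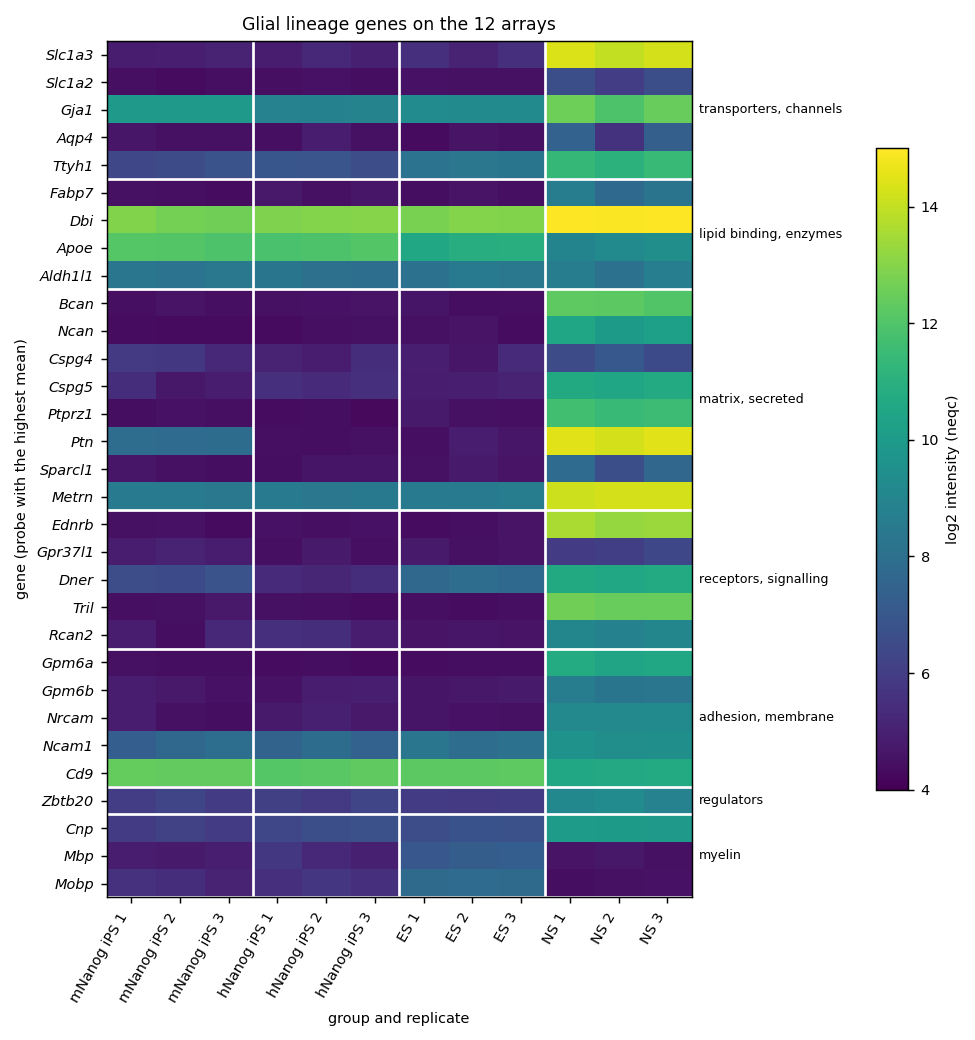
Log2 intensity (colour, 4 to 15) of the 31 glial genes in rows, ordered by role, on each of the 12 arrays in columns. Many rows are highest in the 3 NS columns, some of them dim there, and near background elsewhere. Another 10 genes are detected on all 12 arrays. Ptn is also above background in mNanog iPS, and Apoe and Cd9 are brighter in the 3 pluripotent groups than in NS cells.

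Promoters are shown for 4 genes that stand for the patterns met below: Slc1a3 and Tril, which were high in NS cells, Ptn, which was also detected in mNanog iPS, and Dner, which was detected in ES cells but not in hNanog iPS. Each is the 250 bases before a start site from RefSeq (mouse build GRCm38.p6), read 5′ to 3′ on the gene's strand, with CG pairs in capitals. The windows lie on the minus strand at chr15:8710808-8711057 for Slc1a3, chr6:53820826-53821075 for Tril, chr6:36810180-36810429 for Ptn and chr1:84696222-84696471 for Dner.
Slc1a3: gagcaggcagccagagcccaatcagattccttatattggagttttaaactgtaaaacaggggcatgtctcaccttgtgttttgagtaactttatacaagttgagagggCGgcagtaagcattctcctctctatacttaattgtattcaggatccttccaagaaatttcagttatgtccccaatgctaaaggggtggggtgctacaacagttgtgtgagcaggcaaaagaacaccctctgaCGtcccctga
Tril: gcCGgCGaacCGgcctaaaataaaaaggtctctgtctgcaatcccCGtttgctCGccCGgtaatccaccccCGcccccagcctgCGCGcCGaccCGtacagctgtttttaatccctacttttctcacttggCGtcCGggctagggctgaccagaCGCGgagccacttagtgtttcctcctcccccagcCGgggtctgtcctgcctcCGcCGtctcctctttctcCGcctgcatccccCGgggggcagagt
Ptn: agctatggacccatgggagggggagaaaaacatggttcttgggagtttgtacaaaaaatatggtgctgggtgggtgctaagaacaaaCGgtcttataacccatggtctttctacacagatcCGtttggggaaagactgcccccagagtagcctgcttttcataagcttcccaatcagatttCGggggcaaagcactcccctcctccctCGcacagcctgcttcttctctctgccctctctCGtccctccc
Dner: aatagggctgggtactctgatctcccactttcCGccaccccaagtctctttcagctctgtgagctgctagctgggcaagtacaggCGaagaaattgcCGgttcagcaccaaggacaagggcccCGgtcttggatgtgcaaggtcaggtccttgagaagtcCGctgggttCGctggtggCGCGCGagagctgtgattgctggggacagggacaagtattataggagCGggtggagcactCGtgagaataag

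The shown promoters hold 2 CG pairs in Slc1a3, 20 in Tril, 5 in Ptn and 11 in Dner. RefSeq windows were found for 30 of the 37 genes (37 windows), and the median number of CG pairs was 6 over all 32851 windows of the table. It was 10 (range 3 to 23, 12 windows) in the genes detected on all 12 arrays and 9 (range 1 to 25, 12 windows) in those detected in NS cells alone, so the ranges overlap widely. Methylation was not measured in these samples. Motifs were searched on both strands of the windows. The E-box CAGCTG was found in 13.5% of the glial windows and 13.0% of all windows, and TATAAA in 10.8% and 12.4%. The short nuclear factor I site TTGGCA stood in 16.2% and 12.3%, and it can lie within the full palindrome, which was in none of the glial windows and 0.0365% of all. The Sox site AACAATG was in none of the glial windows and 3.29% of all. Of the shown windows, Slc1a3 holds TATAAA on the opposite strand, where the printed strand reads TTTATA, and Tril holds CAGCTG.

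Against NS cells, most glial genes were lower in every pluripotent group. The limma fit across all 18185 probes, with Benjamini-Hochberg adjustment, called 26 of 31 genes lower and 2 higher in mNanog iPS, where 35.9% of all probes were called lower and 38.5% higher. In hNanog iPS 27 were lower (34.7% of all probes) and 4 higher (40.3%), and in ES cells 26 were lower (34.6%) and 4 higher (40.2%). All 3 comparisons share the NS arrays, and the 17 genes kept through NS cells enter these counts, so nothing is read from them. Of the 10 genes detected on all 12 arrays, 7 were lower in mNanog iPS, 8 in hNanog iPS and 7 in ES cells, and Apoe and Cd9 were higher in each.

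Against ES cells, 10 of the 31 genes were called in mNanog iPS and 7 in hNanog iPS. In mNanog iPS, 4 of the 31 genes were called higher (12.9%, beside 15.6% of all probes): Gja1, Apoe, Cspg4 and Ptn. Another 6 were called lower (19.4%, beside 16.7%): Slc1a3, Ttyh1, Dner, Cnp, Mbp and Mobp. In hNanog iPS, Apoe, Cspg5 and Rcan2 were higher (3 genes, 9.68%, beside 13.4% of all probes) and Ttyh1, Dner, Mbp and Mobp were lower (4 genes, 12.9%, beside 12.2%). The median difference of the 31 genes was -0.02 in mNanog iPS and -0.04 in hNanog iPS on the log2 scale, beside -0.03 and 0.00 over all probes. These shares lie near those of all probes. Under median scaling, which made far fewer calls, 4 genes were lower in mNanog iPS (12.9%, beside 1.77% of all probes) and 4 in hNanog iPS (12.9%, beside 0.962%), while 2 (6.45%, beside 3.33%) and 1 (3.23%, beside 3.05%) were higher. How the members' share stands to that of all probes thus depends on the scaling, and the lower counts include Mbp and Mobp, which were kept through ES cells.

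Most genes not called against ES cells, among them the 13 detected in NS cells alone, were above background in neither group compared. In mNanog iPS the 21 uncalled genes differed from ES cells by -0.46 (Ncam1) to 0.33 (Gpr37l1), and the far end of their 95% intervals lay between 0.22 (Bcan) and 0.85 (Ncam1) on the log2 scale. In hNanog iPS the 24 uncalled genes spanned -0.49 (Ncam1) to 0.29 (Nrcam), with far ends of 0.22 (Cd9) to 0.92 (Aqp4). For genes not above background in either group, Bcan, Gpr37l1, Nrcam and Aqp4 among them, these are differences of background signal and bound no level below it. The lowest log2 value of a detected probe was 5.15 to 5.82 on the 12 arrays.

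**Figure D2:**
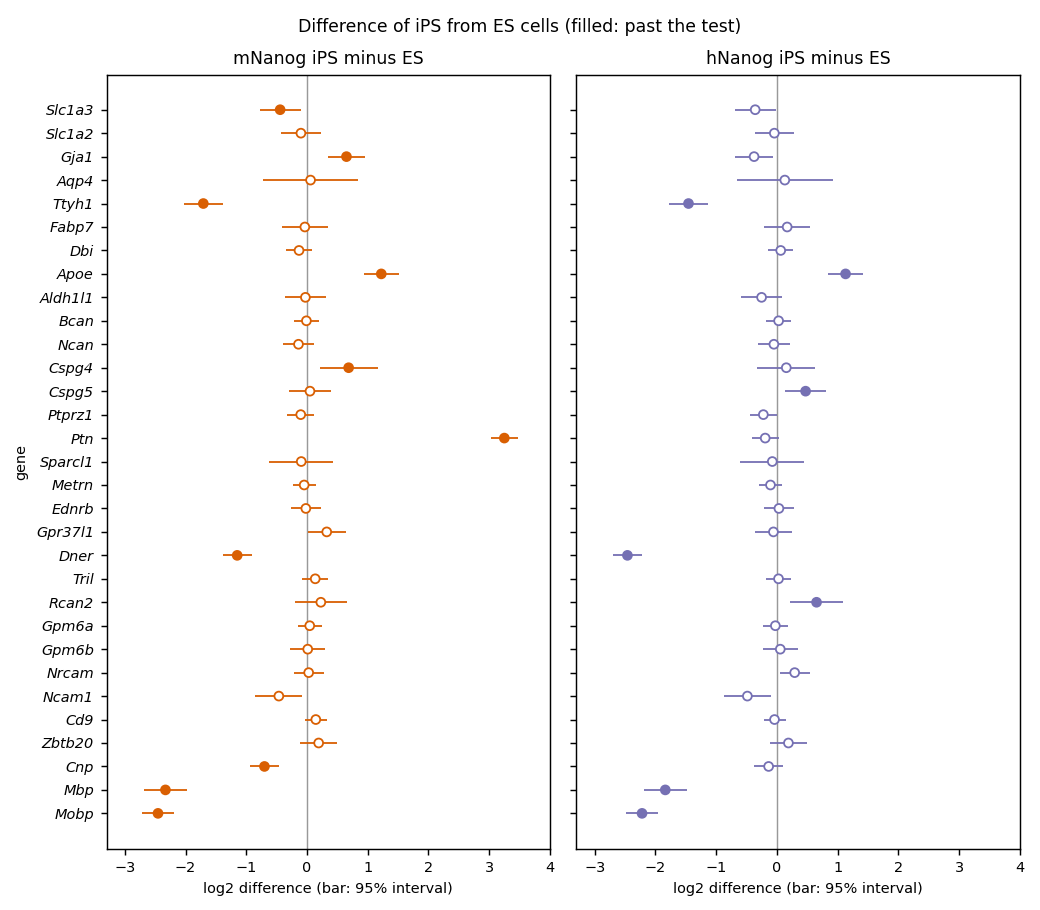
Log2 difference of mNanog iPS (left) and hNanog iPS (right) from ES cells for each of the 31 glial genes, with bars for the 95% interval; filled points passed the test. Most points lie near 0, Ptn stands at 3.25 in mNanog iPS alone, and Dner, Ttyh1, Mbp and Mobp lie below 0 on both sides.

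Transporters and channels take up glutamate and couple glia to one another. Slc1a3, the glutamate transporter by which radial glia are often recognised, read 14.40, 14.01 and 14.31 in NS cells. It read 4.85, 4.90 and 5.07 on the mNanog iPS arrays, 4.85, 5.27 and 4.97 on those of hNanog iPS, and 5.54, 5.08 and 5.53 in ES cells, where 1 array detected it. It was above background in neither iPS group, which put Slc1a3 at least 394-fold lower than NS cells in mNanog iPS and at least 423-fold lower in hNanog iPS. These folds are a description, since the gene was kept through NS cells. The call of mNanog iPS below ES cells (-0.44 ± 0.15 SE, limma adjusted p = 0.046) was lost in 19 of 28 alternatives, 8 of them fits that left out 1 array.

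Slc1a2, the main glutamate transporter of mature astrocytes, was dim even in NS cells at 6.64, 5.99 and 6.66 and was not above background elsewhere. Aqp4, the water channel of astrocyte endfeet, read 7.44, 5.63 and 7.35 in NS cells, with 1 array well below the other two, and was also not above background elsewhere. Both were kept through NS cells, so being lower in the pluripotent groups follows from that. The folds in mNanog iPS, at least 1.75 for Slc1a2 and 2.28 for Aqp4, are a description. The same holds below for the folds of every other gene kept through NS cells.

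Gja1, the connexin of astrocytic gap junctions, was detected on all arrays. It read 9.93, 9.93 and 9.89 on the mNanog iPS arrays, 8.89, 8.84 and 8.94 on those of hNanog iPS, 9.31, 9.25 and 9.25 in ES cells and 12.59, 11.91 and 12.46 in NS cells. No pair of groups overlapped, and the order was NS, mNanog iPS, ES and hNanog iPS. Gja1 was 1.57-fold higher in mNanog iPS than in ES cells (log2 difference 0.65 ± 0.14 SE, limma adjusted p = 0.0038), a call lost under median scaling. The difference of hNanog iPS from ES cells did not pass (-0.38, 95% interval -0.68 to -0.07, limma adjusted p = 0.072). The hNanog iPS arrays lay below those of both other pluripotent groups.

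Ttyh1, a membrane protein of the tweety family found in neural stem cells, was lower in iPS than in ES cells. Its levels were 6.33, 6.53 and 6.83 on the mNanog iPS arrays, 6.94, 6.91 and 6.59 on those of hNanog iPS, 8.20, 8.34 and 8.27 in ES cells, and 11.34, 11.06 and 11.46 in NS cells. All 6 iPS arrays lay below all ES arrays, while both iPS groups overlapped each other. The fold was 3.27 in mNanog iPS (-1.71 ± 0.15 SE, limma adjusted p = 2.6e-06) and 2.74 in hNanog iPS (-1.46 ± 0.15 SE, limma adjusted p = 1.7e-05). The other Ttyh1 probe was above background in NS cells alone, so the difference from ES cells rests on 1 probe.

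Lipid-binding proteins and enzymes included the clearest gene to run against the glial pattern. Apoe, the lipid carrier that astrocytes secrete, read 12.08, 12.07 and 11.91 on the mNanog iPS arrays, 11.82, 11.91 and 12.05 on those of hNanog iPS, 10.61, 10.85 and 10.93 in ES cells and 8.95, 9.23 and 9.45 in NS cells. The groups ran iPS, ES and NS from high to low, with overlap between the iPS groups alone. Apoe was 2.33-fold higher than ES cells in mNanog iPS (1.22 ± 0.13 SE, limma adjusted p = 1.9e-05) and 2.19-fold higher in hNanog iPS (1.13 ± 0.13 SE, limma adjusted p = 5.3e-05). The hNanog iPS minus mNanog iPS difference was -0.09 (95% interval -0.38 to 0.20). Both calls against ES cells held in all 29 alternatives, from 1.04 to 1.36 in hNanog iPS and from 1.13 to 1.30 in mNanog iPS.

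Dbi, an acyl-CoA binding protein that is also a ligand of GABA receptors, was high throughout. It read 12.91, 12.72 and 12.60 on the mNanog iPS arrays, 12.89, 12.94 and 12.99 on those of hNanog iPS, 12.79, 12.95 and 12.90 in ES cells and 15.03, 14.94 and 15.08 in NS cells. Dbi was 4.40-fold lower in ES than in NS cells (limma adjusted p = 5e-10), and the pluripotent groups overlapped. Aldh1l1, a folate enzyme used as an astrocyte marker, gave 1 call in the 6 comparisons. Its levels were 8.33, 8.21 and 8.42 on the mNanog iPS arrays, 8.27, 8.05 and 7.96 on those of hNanog iPS, 8.16, 8.48 and 8.39 in ES cells and 8.68, 8.14 and 8.72 in NS cells. The groups overlapped, and the call of hNanog iPS below NS cells (-0.42 ± 0.15 SE, limma adjusted p = 0.026) was that one. Fabp7, the fatty acid binding protein of radial glia, was detected in NS cells alone at 8.62, 7.74 and 8.21, and mNanog iPS was at least 5.95-fold lower.

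Matrix and secreted proteins held the largest contrast between the iPS groups. Ptn, the heparin-binding growth factor pleiotrophin, read 7.95, 7.86 and 7.89 in mNanog iPS and 14.50, 14.30 and 14.49 in NS cells. On the hNanog iPS arrays it read 4.46, 4.41 and 4.51, and on the ES arrays 4.47, 4.83 and 4.66, none of them above background. The mNanog iPS arrays thus stood clear of both other pluripotent groups and far below NS cells. Against ES cells, Ptn in mNanog iPS was higher by at least 4.97-fold (limma adjusted p = 4.2e-10) and 92.3-fold lower than in NS cells (-6.53 ± 0.10 SE, limma adjusted p = 3.7e-14). The fitted difference from ES cells was 3.25 ± 0.10 SE and stayed past the threshold in all 29 alternatives, at 1.20 to 3.42, the lowest being the authors' processed values.

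**Figure D3:**
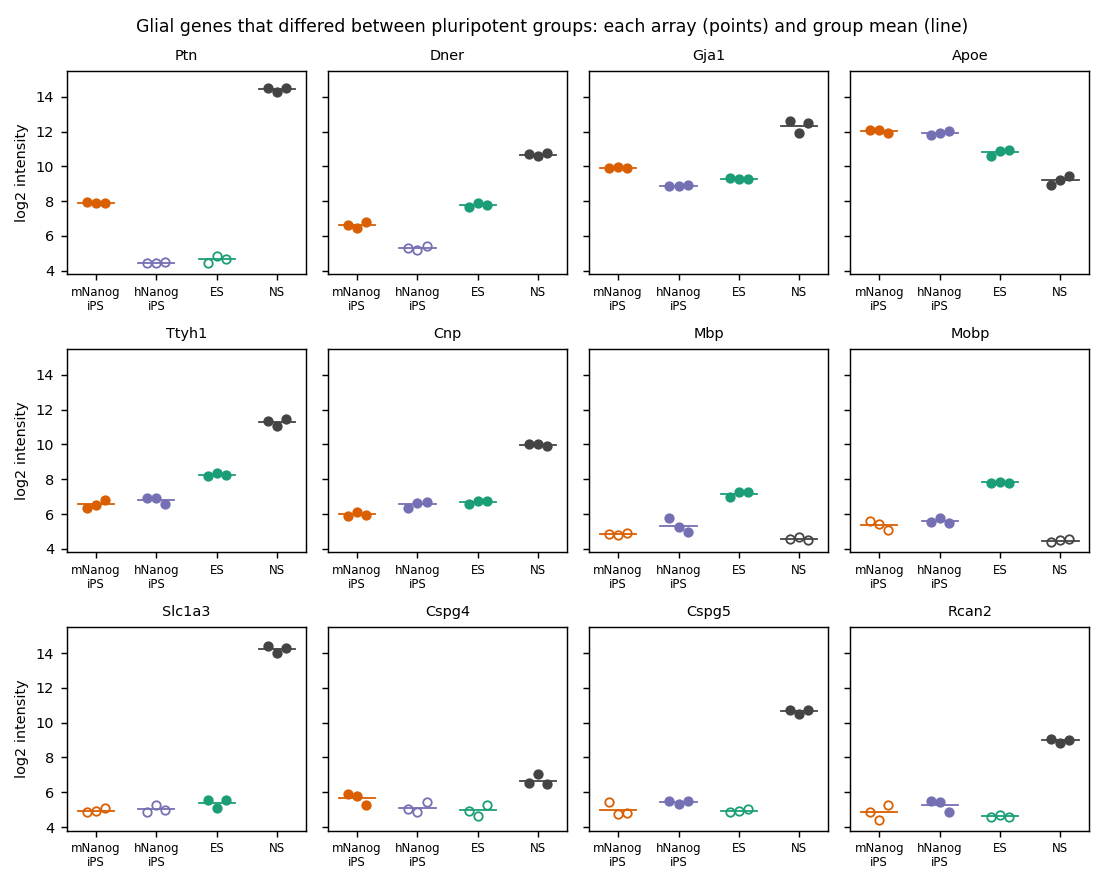
Log2 intensity of the 12 glial genes called between pluripotent groups, with 1 point per array and a line at each group mean; filled points mark groups in which at least 1 array detected the gene. Ptn sits near 7.9 on the 3 mNanog iPS arrays and at background in hNanog iPS and ES cells, whereas Dner, Ttyh1, Mbp and Mobp are highest in ES cells among the pluripotent groups.

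Ptprz1, the receptor phosphatase that pleiotrophin binds, was detected in NS cells alone at 11.67, 11.46 and 11.53. Its mNanog iPS values of 4.41, 4.55 and 4.44 were not above background, while the ligand was detected in all 3. The brain proteoglycans brevican (Bcan) and neurocan (Ncan) were also detected in NS cells alone. Bcan read 12.28, 12.24 and 12.01 there, at least 94.2-fold above mNanog iPS, and Ncan 10.52, 10.01 and 10.21, at least 24.7-fold above. Sparcl1, a secreted matrix protein of astrocytes, read 7.86, 6.65 and 7.65 in NS cells and was not above background elsewhere.

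Cspg4 and Cspg5 gave calls near background. Cspg4, the proteoglycan of oligodendrocyte precursors and pericytes, read 5.89, 5.77 and 5.28 in mNanog iPS, where 1 array detected it, and 4.92, 4.66 and 5.29 in ES cells, where none did; the groups overlap at their ends. Its call in mNanog iPS against ES cells (limma adjusted p = 0.031) was lost in 11 of 28 alternatives. Cspg5, a neural transmembrane proteoglycan, read 5.48, 5.31 and 5.47 in hNanog iPS, detected on 1 array, against 4.88, 4.92 and 5.04 in ES cells, and this call (limma adjusted p = 0.044) was lost in 17 of 28. The other Cspg5 probe did not pass it (0.31). In NS cells Cspg4 was at 6.52, 7.02 and 6.47 and Cspg5 at 10.70, 10.52 and 10.73.

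Metrn, the secreted factor meteorin of neural progenitors and astrocytes, was detected at similar levels in the pluripotent groups. It read 8.59, 8.53 and 8.40 on the mNanog iPS arrays, 8.52, 8.38 and 8.45 on those of hNanog iPS, 8.51, 8.51 and 8.64 in ES cells and 14.18, 14.30 and 14.29 in NS cells. The difference from ES cells was -0.05 (95% interval -0.23 to 0.14) in mNanog iPS and -0.11 (-0.29 to 0.08) in hNanog iPS, and ES cells lay 52.1-fold below NS cells (-5.70 ± 0.09 SE, limma adjusted p = 3.4e-14). Among the 10 genes detected everywhere, Metrn had the largest fall from NS cells in each pluripotent group.

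Receptors and signalling proteins differed from ES cells mainly through Dner. Dner, a transmembrane protein of neurons and neural progenitors reported as a Notch ligand, read 7.66, 7.91 and 7.76 in ES cells and 10.69, 10.59 and 10.74 in NS cells. It read 6.60, 6.47 and 6.81 on the mNanog iPS arrays, and 5.32, 5.19 and 5.44 on those of hNanog iPS, where no array detected it. All 4 groups were separate, in the order NS, ES, mNanog iPS and hNanog iPS. Dner was 2.22-fold lower in mNanog iPS than in ES cells (-1.15 ± 0.11 SE, limma adjusted p = 6.6e-06) and at least 4.80-fold lower in hNanog iPS (limma adjusted p = 2e-08). Both calls held in all 29 alternatives.

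Ednrb, the endothelin receptor of astrocytes and neural crest, had the widest contrast of the genes detected in NS cells alone. It read 13.61, 13.25 and 13.33 there, and was at least 219-fold lower in mNanog iPS, 236-fold in hNanog iPS and 224-fold in ES cells. Tril, a leucine-rich accessory protein of toll-like receptors in glia, read 12.61, 12.44 and 12.43 in NS cells and was at least 117-fold lower in mNanog iPS. Gpr37l1, a receptor of astrocytes, was faint in NS cells at 5.94, 6.04 and 6.39, which is close to the lowest detected signals. Rcan2, a regulator of calcineurin, was at 9.06, 8.85 and 9.03 in NS cells. In hNanog iPS it read 5.52, 5.42 and 4.86, detected on 2 arrays, against 4.57, 4.69 and 4.59 in ES cells with none. This call (0.65 ± 0.20 SE, limma adjusted p = 0.03) was lost in 12 of 28 alternatives, and the other Rcan2 probe did not pass it.

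Adhesion and membrane proteins gave no call among the pluripotent groups. Gpm6a and Gpm6b, relatives of the myelin proteolipid protein, read 10.76, 10.42 and 10.58, and 8.62, 8.29 and 8.31, in NS cells and were not above background elsewhere. Nrcam, a cell adhesion molecule of axons and glia, read 9.17, 9.18 and 9.21 in NS cells, likewise alone. The at-least folds below NS cells were 31.3 for Gpm6a, 6.92 for Gpm6b and 11.9 for Nrcam in mNanog iPS.

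Ncam1, the neural cell adhesion molecule, was detected everywhere. It read 7.28, 7.68 and 7.98 on the mNanog iPS arrays, 7.51, 7.90 and 7.47 on those of hNanog iPS, 8.33, 7.91 and 8.09 in ES cells and 9.63, 9.43 and 9.46 in NS cells. The difference from ES cells was -0.46 for mNanog iPS and -0.49 for hNanog iPS, and neither passed (limma adjusted p = 0.065 in each). A second Ncam1 probe was above background in NS cells alone, at 10.14, 9.45 and 10.22, and so was a fainter one. The remaining Ncam1 probe was detected in every group, but not on all arrays of the pluripotent groups. On it the difference from ES cells was 0.04 for mNanog iPS and 0.12 for hNanog iPS, neither called. Cd9, a tetraspanin of oligodendrocyte precursors and of ES cells, was higher in the pluripotent groups than in NS cells. It read 12.42, 12.37 and 12.35 on the mNanog iPS arrays, 12.09, 12.19 and 12.31 on those of hNanog iPS, 12.22, 12.23 and 12.26 in ES cells and 10.54, 10.64 and 10.71 in NS cells, and ES cells were 3.04-fold above NS cells (1.60 ± 0.08 SE, limma adjusted p = 2.3e-09).

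Zbtb20, a zinc finger repressor of neural progenitors and astrocytes, was the 1 measured regulator. It read 5.98, 6.31 and 5.94 on the mNanog iPS arrays, 6.08, 5.87 and 6.28 on those of hNanog iPS, 5.89, 5.85 and 5.91 in ES cells and 9.14, 9.30 and 8.89 in NS cells. The hNanog iPS arrays overlapped those of both other pluripotent groups. The mNanog iPS arrays lay just above the ES arrays, with no call (0.19, 95% interval -0.11 to 0.49). ES cells were 9.34-fold below NS cells (-3.22 ± 0.14 SE, limma adjusted p = 3.7e-10).

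The 3 myelin genes did not follow the glial pattern as a group. Cnp, the phosphodiesterase of oligodendrocyte membranes, was high in NS cells at 10.02, 10.01 and 9.92. It read 5.91, 6.15 and 5.96 on the mNanog iPS arrays, 6.36, 6.65 and 6.71 on those of hNanog iPS, and 6.60, 6.77 and 6.74 in ES cells. The mNanog iPS arrays lay below all others, 1.63-fold below ES cells (-0.70 ± 0.11 SE, limma adjusted p = 0.00033), and hNanog iPS overlapped ES cells. The call was lost under median scaling. A second Cnp probe, also detected on all arrays, gave a smaller difference of -0.33 from ES cells, which also passed.

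Mobp, a basic protein of the myelin sheath, was detected in full in ES cells and not in NS cells. Its leading probe read 7.81, 7.85 and 7.81 in ES cells, 5.59, 5.43 and 5.09 on the mNanog iPS arrays, 5.54, 5.76 and 5.51 on those of hNanog iPS and 4.40, 4.49 and 4.54 in NS cells. ES cells thus stood above every other group, and 2 hNanog iPS arrays were above background. On this probe, which was kept through ES cells, Mobp was at least 4.61-fold lower than ES cells in mNanog iPS and 4.66-fold lower in hNanog iPS. Of the other 3 Mobp probes, 1 was also detected on 1 mNanog iPS and 2 hNanog iPS arrays and met the minimum without ES cells. On it the difference from ES cells was -2.19 ± 0.11 SE in mNanog iPS (limma adjusted p = 3.3e-08) and -2.07 ± 0.11 SE in hNanog iPS (limma adjusted p = 1.1e-07). Over all 4 probes the differences were -2.48 to -2.19 and -2.52 to -2.07.

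Mbp, the major basic protein of myelin, gave opposite answers on its 2 probes. The probe with the higher mean read 7.01, 7.24 and 7.27 in ES cells, 4.83, 4.77 and 4.91 on the mNanog iPS arrays, 5.78, 5.24 and 4.99 on those of hNanog iPS and 4.58, 4.69 and 4.51 in NS cells. On it, mNanog iPS was at least 2.94-fold below ES cells, and ES cells were at least 3.86-fold above NS cells. The other probe was detected on the 3 NS arrays alone, at 6.67, 5.92 and 6.63, and gave an ES minus NS difference of -1.34. Each probe was kept through the group in which it is high, so these are given without a test. The other probe gave no call against ES cells, at -0.30 in mNanog iPS and -0.02 for hNanog iPS. Which transcripts each probe reads was not analysed here, so no single direction against NS cells is given for Mbp.

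**Figure D4:**
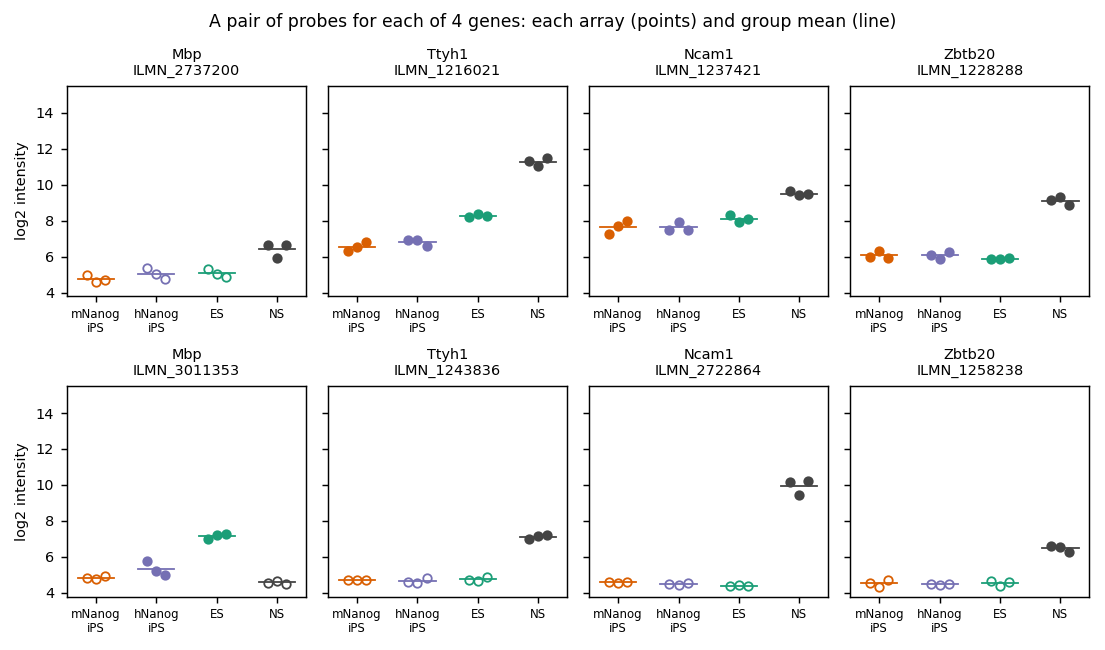
Log2 intensity on each array for a pair of probes of Mbp, Ttyh1, Ncam1 and Zbtb20, with a line at each group mean; filled points mark groups in which at least 1 array detected the probe. The Mbp probes differ in which group they detect (NS in the upper panel, ES in the lower), while for the other 3 genes the lower probe is above background in NS cells alone.

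Between the iPS groups, 4 of the 31 glial genes differed. Cnp was higher in hNanog iPS (1 gene, 3.23%, beside 6.33% of all probes), and Gja1, Ptn and Dner were lower (3 genes, 9.68%, beside 7.15%). Ptn was at least 5.23-fold lower in hNanog iPS than in mNanog iPS (limma adjusted p = 6.9e-10) and Dner at least 2.16-fold lower (limma adjusted p = 5.2e-06). Gja1 was 2.03-fold lower (-1.02 ± 0.14 SE, limma adjusted p = 0.00038) and Cnp 1.48-fold higher (0.57 ± 0.11 SE, limma adjusted p = 0.0039) on its leading probe. The second Cnp probe did not pass (0.14, limma adjusted p = 0.44), and its arrays overlapped, at 6.48, 6.23 and 6.10 on the mNanog iPS arrays against 6.32, 6.51 and 6.40 on those of hNanog iPS. The 27 uncalled genes differed by -0.53 (Cspg4) to 0.49 (Mbp). Under median scaling the Ptn call remained, while those of Dner, Gja1 and Cnp were lost at differences of -1.10, -0.74 and 0.74.

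The Ptn and Gja1 differences were also computed within each kind of array. With brightness as a term, the difference between mNanog iPS and ES cells was 3.25 for Ptn and 0.65 for Gja1. The term could not move it, since both groups hold the same number of arrays of each kind. Within brighter arrays alone, which hold 1 array of each group, it was 3.42 and 0.58, values with no replicate of their own. Within dimmer arrays alone, with 2 arrays of each, it was 3.16 and 0.68. Between the iPS groups, which split unevenly by kind, the term gave hNanog iPS minus mNanog iPS differences of -3.43 for Ptn and -1.07 for Gja1. Without it they were -3.44 and -1.02. For hNanog iPS minus mNanog iPS, Cnp passed with the term (0.61) but not within the brighter (0.54, limma adjusted p = 0.061) or the dimmer arrays (0.68, limma adjusted p = 0.11). Each kind holds 1 or 2 arrays of a group, and where there is 1 its spread is taken from the groups with more. With the brightness term, 7 glial genes were lower in hNanog iPS than in ES cells, against 4 without it. The share of all probes called lower with the term is not given here, so nothing about glial genes is read from that count.

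Of 32 further genes of the glial lineages, 25 had a passing probe. Against NS cells, mNanog iPS had 22 lower and 2 higher, hNanog iPS 23 lower and 1 higher, and ES cells 23 lower and 2 higher, but 16 of the 25 were kept through NS cells alone. Against ES cells, 4 were higher in mNanog iPS (Tnc, Vcam1, Sox9 and Pdgfra, beside 15.6% of all probes) and 5 lower (Nes, Mal, Acsl6, Id4 and Nfib, beside 16.7%). In hNanog iPS 1 was higher (Acsl6, beside 13.4%) and 3 lower (Vim, Mal and Id4, beside 12.2%). The differences of the 5 lower genes in mNanog iPS were -1.15 for Nes, -1.42 for Mal, -1.16 for Acsl6, -1.19 for Id4 and -0.63 for Nfib. Mal, a proteolipid of myelin, was kept through ES cells alone and stood at -2.04 in hNanog iPS.

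The genes higher in mNanog iPS in that list included Sox9 and Vcam1, detected, like Ptn, on all arrays of mNanog iPS and NS cells. Sox9, a transcription factor of gliogenesis and of cartilage, read 6.89, 6.75 and 6.55 in mNanog iPS and 12.93, 13.33 and 12.86 in NS cells, and was not above background in hNanog iPS or ES cells. Its level in mNanog iPS was above that in ES cells by at least 2.20-fold (limma adjusted p = 2.8e-07). Vcam1, an adhesion molecule of neural stem cells and of stroma, read 6.71, 6.78 and 6.67 in mNanog iPS and was at least 2.19-fold higher (limma adjusted p = 1.6e-07). In the other direction, Acsl6, an acyl-CoA synthetase, read 6.48, 6.59 and 6.53 on the mNanog iPS arrays against 7.89, 8.17 and 8.29 on those of hNanog iPS, and differed between them by 1.59 ± 0.12 SE (limma adjusted p = 2.1e-06). Vim, the intermediate filament vimentin, was lower in hNanog iPS than in ES cells by -1.57 ± 0.09 SE (limma adjusted p = 1e-07), with 8.66, 8.62 and 8.77 against 10.16, 10.27 and 10.34.

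The measured fibroblast markers, like Ptn, were detected in full in mNanog iPS, but unlike Ptn they were highest there and not in NS cells. Of 8 listed markers 3 had a passing probe, and all 3 were higher in mNanog iPS than in ES cells (beside 15.6% of all probes), but Col1a1 and Dcn were kept through mNanog iPS alone, which fixes their part of that count. Col1a1, a fibrillar collagen chain, read 8.07, 8.13 and 8.23 in mNanog iPS and was not above background in any other group. Dcn, the matrix proteoglycan decorin, read 8.18, 8.71 and 8.69 there and was likewise not above background elsewhere. Thy1, a surface protein of fibroblasts and neurons, read 6.78, 6.84 and 7.11, and also 6.11, 5.85 and 6.03 in NS cells. Their summed linear level was 668.2 to 850.2 in mNanog iPS, 70.5 to 84.9 in hNanog iPS, 68.2 to 73.0 in ES cells and 103.1 to 117.5 in NS cells. Their part in the Ptn, Gja1, Sox9 and Vcam1 results was not tested. The 6 measured neuronal markers summed to 1924.7 to 2092.8 in mNanog iPS, 2015.9 to 2126.4 in hNanog iPS, 1789.5 to 1882.8 in ES cells and 5299.4 to 5478.6 in NS cells. These sums mix opposite directions. Stmn2 averaged 10.82 in mNanog iPS, 10.87 in hNanog iPS and 10.68 in ES cells, and was not above background in NS cells. Map2 averaged 6.29, 6.10 and 6.15 in those groups, against 12.26 in NS cells. The other measured neuronal markers were also higher in NS cells, through which some of them were kept. Of 2 measured endothelial markers, Tek was lower than ES cells in both iPS groups. Of 8 pluripotency markers, Fbxo15 was lower than ES cells in both iPS groups and Pou5f1 higher in hNanog iPS. Slc1a3, Fabp7, Bcan, Ncan, Ednrb, Tril and Olig2, all high in NS cells, were not above background in mNanog iPS. Each was kept through NS cells alone, so nothing is read from that. Some other genes high in NS cells were not detected in ES cells but were seen in mNanog iPS. Among them were Ptn, Sox9 and Vcam1, detected there in full, and Tnc and Pdgfra, on 1 array. Further genes high in NS cells were detected in full in both mNanog iPS and ES cells, Gja1, Metrn, Dbi, Ttyh1, Dner, Cnp and Vim among them. Against ES cells, mNanog iPS was called higher for Gja1, lower for Ttyh1, Dner and Cnp, and neither for Metrn, Dbi and Vim.

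**Figure D5:**
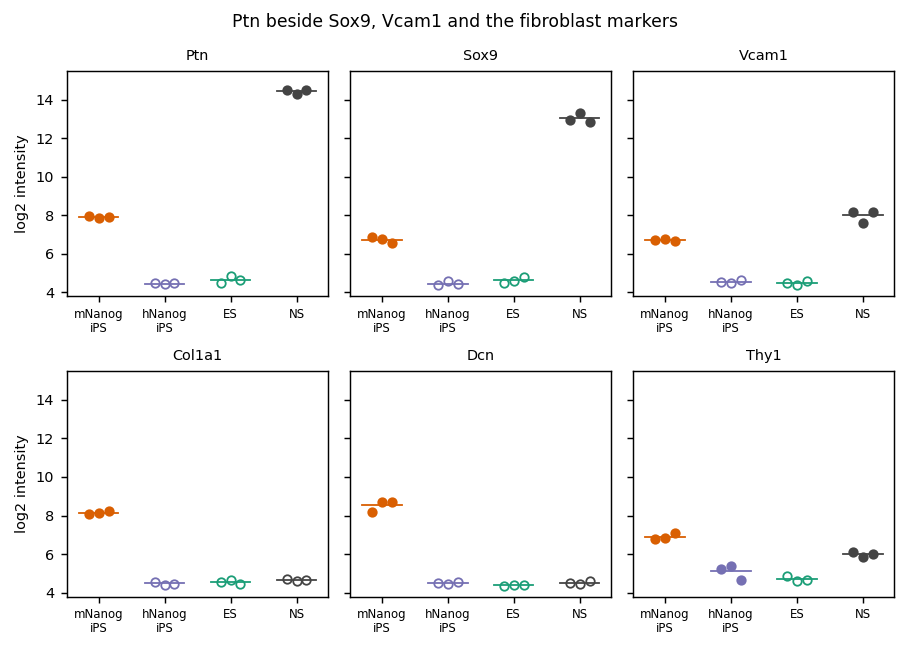
Log2 intensity on each array of Ptn, Sox9 and Vcam1 (top) and of the 3 measured fibroblast markers Col1a1, Dcn and Thy1 (bottom), with a line at each group mean; filled points mark groups in which at least 1 array detected the gene. All 6 genes are detected on the mNanog iPS arrays and sit at or near background in ES cells, while Col1a1 and Dcn are also at background in NS cells.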

How the data were processed

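Total RNA was amplified and biotin labelled for Illumina bead arrays, per the labels. The deposited values are mean bead signals for 45281 probes, a linear intensity, not normalized between arrays per the file headers, with a detection p-value beside each signal. The authors' processed table holds 20513 probes, those detected on at least 1 array. Its values, deposited by the authors with no stated base, were taken as log2 from their range, and are quantile normalized, so they served as an alternative. No source used here names the scanner software or the authors' background method.

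In R 4.3.3, limma 3.58.1 (neqc, offset 16) inferred background from detection p-values and quantile normalized the arrays. Probes detected on at least 3 of 12 arrays (18185) were fitted with 4 group means, followed by eBayes and Benjamini-Hochberg adjustment over all of them. A call needs an adjusted p under 0.05 and detection on at least 1 array of the groups compared. The test was run on simulated data with independent noise on each array. Real deviations were correlated by brightness, so that run checks the code and not the calls made here. Differences are the first group minus the second, and errors are SE. Where no array of a group detected a gene, the fold is given as at least the ratio to the lowest detected level there. Precision is limited by the number of arrays.

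Genes were named by the platform annotation (17492 probes, 8 with several symbols). The gene list, further lists, tests and alternatives were chosen with earlier results of these data known. Every gene with a passing probe is named; those called among pluripotent groups or detected in all groups are given by array, and at most 4 genes per other list, the largest changes past the threshold, together with Pou5f1, Nes, Olig2 and Sox2 as label checks. Tnc, Pdgfra, Mal, Acsl6, Id4, Nfib, Vim and Fbxo15 fall outside this rule and were named after their values were seen. Replicate numbers did not pair the samples: same-numbered arrays of different groups had deviations correlated at -0.507 to 0.374. Alternatives covered background, scaling, filter, probe choice, processed values, fit, blocks and leaving out each array. Slides are not named in the labels or headers, so no slide block was run. Probe sequences and positions were not used.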

Additional observations from a re-analysis of the deposited data

Results flagged for a closer look

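Compared directly in the limma fit, hNanog iPS and mNanog iPS differed in 4 of 31 glial genes, 1 higher (beside 6.33% of all probes) and 3 lower (beside 7.15%) in hNanog iPS. The hNanog iPS minus mNanog iPS log2 difference was -3.44 for Ptn, which among the pluripotent groups was detected in mNanog iPS alone. It was -1.31 for Dner, detected on 3 of 3 mNanog iPS arrays and on none of hNanog iPS. Gja1 gave -1.02 and the leading Cnp probe 0.57, each with all arrays of the groups apart, while on the second Cnp probe the arrays overlapped and no call was made (0.14). Form of Nanog and iPS clone cannot be told apart in any of them.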

How the results depend on the processing

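Over 29 alternatives the 110 called gene changes gave 3131 values, of which 3049 kept direction and call, 79 kept direction without passing and 3 changed sign. Ptn, Apoe, Dner against ES cells and Mobp kept their calls among pluripotent groups throughout, although the authors' processed values shrank Ptn in mNanog iPS minus ES to 1.20 and Dner in hNanog iPS minus ES to -0.98. The leading Mobp probe was kept through ES cells, which limits what its kept calls show. The genes called higher in hNanog iPS than in ES cells fell from 3 to 1 under median scaling, cyclic loess, a filter of 6 arrays, no filter, processed values, dimmer arrays alone and the lowest-mean probe, and ranged from 1 to 3 when 1 array was left out. Those called lower went from 4 to 7 with the brightness block and 2 with the lowest-mean probe. Apart from median scaling, shares of all probes under the alternatives are not given here. Nothing about glial genes is therefore read from the counts under them. Between iPS groups, the count higher in hNanog iPS (1) was 0 under median scaling, dimmer arrays and the lowest-mean probe, 2 with brighter arrays or the mean of a gene's probes, 4 with array weights and 1 to 2 when 1 array was left out (2 without mNanog iPS replicate 1 or hNanog iPS replicate 3); the count lower (3) was 1 under median scaling. Median scaling also cut the genes higher in mNanog iPS than in ES cells from 4 to 2. It moved the median of all probes to 0.255 for hNanog iPS minus mNanog iPS and -0.325 for mNanog iPS minus NS; the cause of the lost calls was not tested. With the filter of 6 arrays, which tests fewer genes, 9 in mNanog iPS, 10 in hNanog iPS and 9 in ES cells were lower than NS cells. Mbp reversed against NS cells: -0.31 (mean of probes) and -1.36 (lowest-mean probe) in hNanog iPS, and -1.34 (lowest-mean probe) in ES cells.

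With replicate number as a block, the calls of Slc1a3 (-0.44, limma adjusted p = 0.063) and Cspg4 (0.69, limma adjusted p = 0.056) in mNanog iPS minus ES were lost and no other of the 110; the numbers do not pair the samples, and 3 of 12 arrays correlated best with their own number. Replicate counts of 3 and signals near background limit what can be said of Slc1a2, Gpr37l1, Cspg4, Cspg5 and Rcan2.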
